A study of Mus musculus with 10 samples.

Results

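The genes described here are the smooth muscle genes that mark peritubular myoid cells: Acta2, Actg2, Myh11, Myl9, Mylk, Tagln, Cnn1, Smtn, Lmod1 and Des. They were taken as a list of names, by a rule that uses no value of theirs but with earlier results of these data known, and are 10 of the 55421 Ensembl genes in the count files. RNA-seq was done on mouse testes at postnatal day 21 (P21), with 3 wild type (Mov10+/+) libraries, numbered 1, 2 and 3, and 3 Mov10-/- libraries, numbered 2, 3 and 4. The labels describe 3 pairs of testes per genotype, so the libraries were read as separate animals. In 4 further libraries, RNA bound by the MOV10 helicase was sequenced by CLIP-seq. The Mov10-/- mice carry a global deletion, made by the ubiquitous Actb-Cre acting on a floxed allele, and are of mixed FVB, C57BL/6 and 129 descent. The deletion was therefore present in the contractile cells themselves as well as in germ cells and all other cells of the testis.

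Peritubular myoid cells are flat, contractile cells that surround the seminiferous tubule, lay down part of its basement membrane together with Sertoli cells, and move fluid and sperm along the lumen. They contract like other smooth muscle: calcium activates myosin light chain kinase, which phosphorylates the regulatory light chain of myosin and lets the motor pull on actin filaments. The same genes are active in the muscle layer of blood vessels, so their RNA in a whole testis comes from both.

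The RNA-seq libraries held 5083407 to 9230540 reads on genes, the fewest in Mov10-/- library 3, in which 57.2% of reads were not aligned against 26.5% to 35.9% in the other 5. Values are given as CPM (reads of a gene scaled to a common library total) after TMM scaling, which evens out differences in composition between libraries, and 1 read stood for 0.108 to 0.197 unscaled CPM. Mov10 itself had 114, 96.8 and 120 CPM in wild type libraries 1, 2 and 3 and 29.2, 26.7 and 26.8 CPM in Mov10-/- libraries 2, 3 and 4. It was the only one of the 20240 tested genes to pass both a fold over 2 and an adjusted p under 0.05 (edgeR's quasi-likelihood test, Benjamini-Hochberg adjusted p = 0.00552).

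All 10 smooth muscle genes were detected in every library, with 127 to 2194 reads each, and all passed the filter for testing (above 1 CPM in at least 3 of the 6 libraries). Not one of them met the criteria for a changed gene in Mov10-/- testes, at a background of 0.00494% of tested genes. Their levels nevertheless lay mostly to one side. Of the 10, 9 had a log2 fold change above 0, against 53.8% of all tested genes, with Actg2 as the exception, and the median of their log2 fold changes was 0.33 against 0.03 over all tested genes. Added over the 10 genes, wild type testes had 765 ± 44.6 CPM and Mov10-/- testes 948 ± 105 CPM (SD, n = 3). In bulk RNA, more or fewer contractile cells and more or less RNA per cell cannot be told apart.

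Levels of different genes can be compared only per length. In wild type testes, Myl9 had the highest level, 65.6 ± 3.84 CPM per kilobase of exons (SD, n = 3), above 99.5% of the tested genes, and Acta2 followed with 44.1 ± 1.35 CPM per kilobase. The libraries of these genes did not overlap. Next came Actg2 at 29.7 ± 16.9 CPM per kilobase, with a spread so wide that it overlapped Acta2, Tagln, Mylk and Myh11 (25.1 ± 4.57 CPM per kilobase). Myh11 in turn overlapped Tagln at 20.8 ± 0.631 CPM per kilobase, whereas Tagln lay wholly above Mylk (16.6 ± 1.82 CPM per kilobase) and Mylk wholly above Smtn (10.7 ± 1.38 CPM per kilobase). The place of Tagln is uncertain, because 1241 of its 1988 exon bases are shared with a gene on the other strand. Smtn, Cnn1 (8.70 ± 0.650), Lmod1 (7.71 ± 1.18) and Des (7.02 ± 0.216 CPM per kilobase) closed the order, each overlapping the next. The lowest, Des, still lay above 45.6% of the tested genes.

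**Figure D1:**
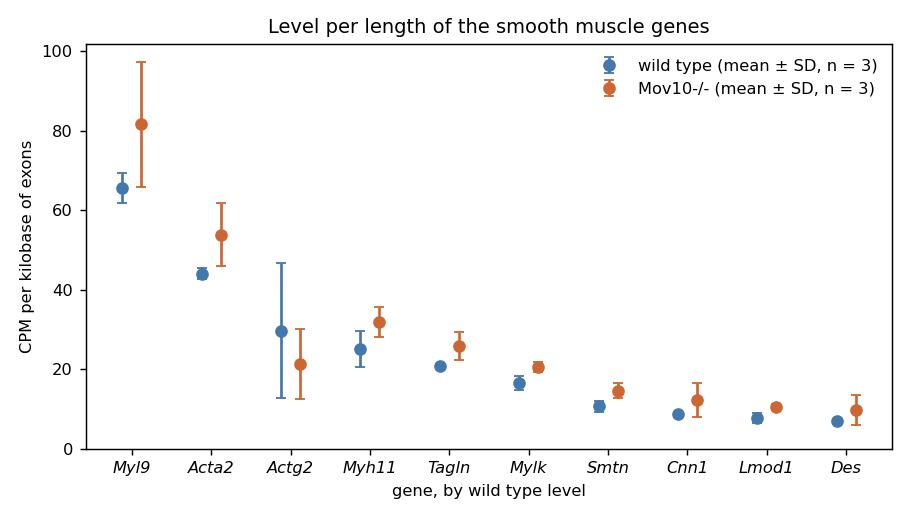
Level of each smooth muscle gene in CPM per kilobase of exons (vertical axis), ordered by the wild type mean; points are means and bars SD over 3 libraries, blue for wild type and orange for Mov10-/-. Myl9 stands highest at 65.6 CPM per kilobase in wild type and Des lowest at 7.02, and Actg2 has the widest wild type bar.

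Many smooth muscle genes are controlled by serum response factor (SRF), which binds a run of A and T between CC and GG called the CArG box. The stretches shown here are those of the members' own promoters that hold the box or miss it by 1 letter, so that the contractile genes can be seen beside the element they are known for. Of the 10 genes, 7 had a promoter in the RefSeq table (build GRCm38.p6, 250 bases before to 50 bases after the start of the gene), and Actg2, Myh11 and Tagln had none. The starts are those of RefSeq, and both Acta2 stretches lie inside Acta2 as placed by GENCODE (chr19:34241090-34255590). The search covered both strands, on which the box reads alike, and the capitals mark the match.
Myl9, exact, chr2:156775293-156775322, plus strand: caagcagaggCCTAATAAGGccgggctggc
Myl9, 1 letter off, chr2:156775355-156775384, plus strand: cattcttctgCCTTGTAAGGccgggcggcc
Acta2, 1 letter off, chr19:34255438-34255467, minus strand: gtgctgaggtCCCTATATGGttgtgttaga
Acta2, 1 letter off, chr19:34255388-34255417, minus strand: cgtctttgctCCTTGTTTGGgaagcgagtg
Lmod1, 1 letter off, chr1:135324614-135324643, plus strand: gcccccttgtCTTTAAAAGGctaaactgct
Lmod1, 1 letter off, chr1:135324639-135324668, plus strand: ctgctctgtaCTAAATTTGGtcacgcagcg
The exact box was found in 1 of the 7 members' promoters and in 1.63% of the 32851 promoters in the table. With up to 1 letter off, the counts were 3 of 7 members and 21.1% of all promoters, so that the looser match is common. Myl9 and Acta2, the genes with the highest wild type level per kilobase, were among the 3, and Lmod1, one of the lowest, was the other. A match is a description of letters and not of a site in use.

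The actins form the filament on which the motor pulls. Acta2, smooth muscle α-actin and the usual marker of myoid cells, lies at chr19:34241090-34255590 on the minus strand (mm10). It had 98.7, 98.2 and 93.3 CPM in wild type libraries 1, 2 and 3 and 114, 138 and 103 CPM in Mov10-/- libraries 2, 3 and 4. Every mutant library was above every wild type library, and the 3 wild type values lay close together. The log2 fold change was 0.29 ± 0.12 (SE), and the adjusted p was 0.273 (edgeR). Without Mov10-/- library 3, the highest of the 6, the log2 fold change of Acta2 was 0.17.

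Actg2, the γ-actin of enteric and other visceral smooth muscle (chr6:83512905-83536265, minus strand), behaved differently. Wild type libraries 1, 2 and 3 had 35.9, 76.3 and 26.7 CPM, and Mov10-/- libraries 2, 3 and 4 had 48.9, 27.3 and 23.5 CPM. The genotypes overlapped, wild type library 2 was the highest and Mov10-/- library 4 the lowest. Its log2 fold change was -0.47 ± 0.43 (SE; edgeR, adjusted p = 0.596), and without wild type library 2 it was 0.091, on the other side of 0. Across the 6 libraries Actg2 was the only member whose log2 level did not go with the mean of the other 9 (Pearson's r = -0.24), while the other members had r between 0.53 (Myl9) and 0.91 (Des). These values describe 6 libraries of 2 genotypes that share their scaling.

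The motor consists of myosin heavy and light chains and is switched on by a kinase. Myh11, the smooth muscle myosin heavy chain (chr16:14194535-14291372, minus strand), had 215, 151 and 206 CPM in wild type libraries 1, 2 and 3 and 272, 238 and 215 CPM in Mov10-/- libraries 2, 3 and 4. The genotypes were separated only by a gap of 0.087 CPM, between wild type library 1 and Mov10-/- library 4, which is less than 1 read. Myh11 had a log2 fold change of 0.34 ± 0.16 (SE; edgeR, adjusted p = 0.305), and 0.20 without wild type library 2, the lowest of the 6.

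Myl9, the regulatory light chain (chr2:156775420-156781658, plus strand), had 81.1, 72.4 and 75.1 CPM in the wild type libraries and 87.7, 116 and 81.2 CPM in the Mov10-/- libraries, in the same order. Here too the gap between the highest wild type and the lowest mutant library was under 1 read, at 0.079 CPM, and Mov10-/- library 3 stood apart from the other 5. The log2 fold change was 0.31 ± 0.15 (SE; edgeR, adjusted p = 0.321) with all libraries and 0.15 without that one. Acta2 and Myl9 were the only members with their highest value in Mov10-/- library 3, the shallowest one.

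Mylk, the kinase that phosphorylates Myl9, lies at chr16:34745210-35002420 on the plus strand. Its level was 204, 164 and 192 CPM in wild type libraries 1, 2 and 3 and 248, 229 and 221 CPM in Mov10-/- libraries 2, 3 and 4. Every mutant library was higher than every wild type library, with a gap of 17.3 CPM. The log2 fold change of 0.32 ± 0.11 had the smallest SE of the 10 genes, and the adjusted p was 0.204 (edgeR). Over 772 of its 11263 exon bases Mylk overlaps genes on the other strand (E130310I04Rik, at most 0.537 CPM, and Gm21691, 4.84 to 9.45 CPM), and whether the counting used strand is not stated.

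**Figure D2:**
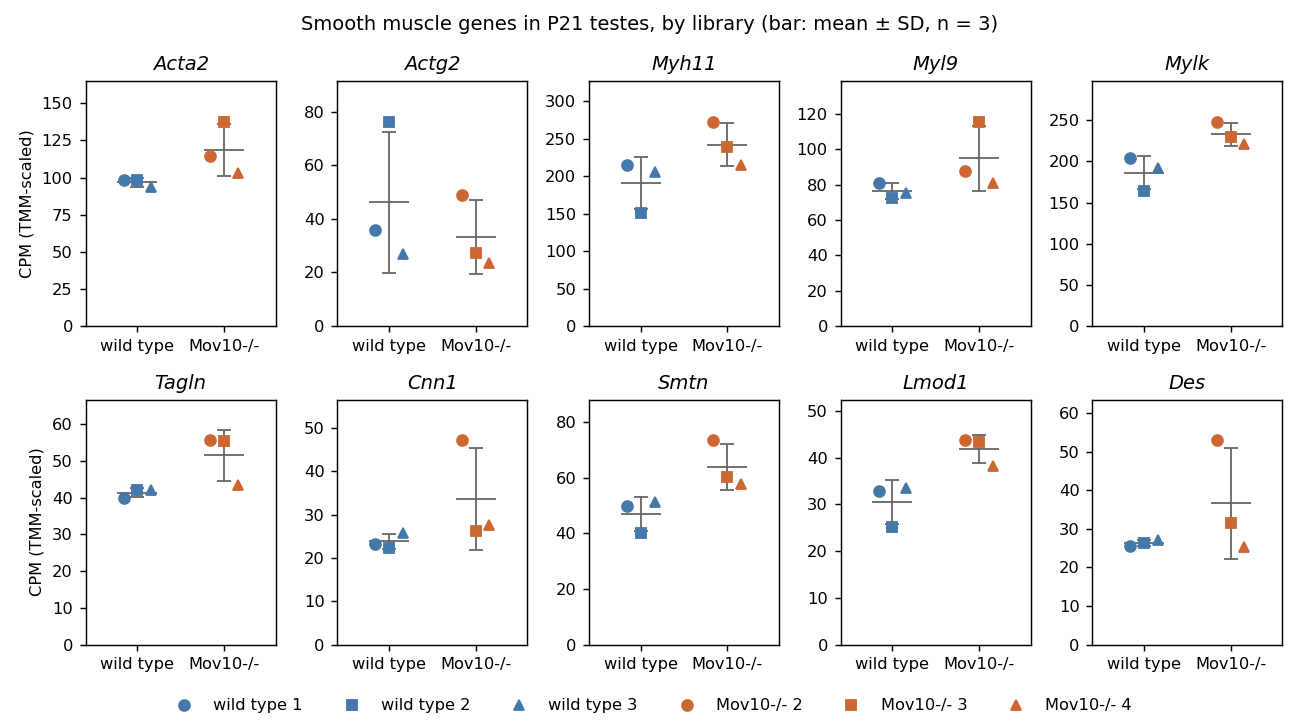
TMM-scaled CPM of each of the 10 genes in the 3 wild type (blue) and 3 Mov10-/- (orange) libraries; each point is 1 library, and the bar and whiskers give the mean ± SD. The vertical axes start at 0 and differ between genes. Mylk, Smtn and Lmod1 are separated by genotype, whereas Actg2 overlaps and Cnn1 and Des owe their high mutant mean to library 2 (47.1 and 53.0 CPM).

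The actin-binding proteins stabilise the filament or tune its pull. Tagln, transgelin or SM22α (chr9:45929619-45936058, minus strand), had 39.9, 42.2 and 42.0 CPM in the wild type libraries (SD of 1.25 CPM). Mov10-/- libraries 2, 3 and 4 had 55.6, 55.5 and 43.3 CPM, so that 2 libraries stood apart and library 4 was 1.15 CPM above the highest wild type library. Its log2 fold change was 0.31 ± 0.14 (SE; edgeR, adjusted p = 0.306). Of 1988 exon bases of Tagln, 1241 are shared with Gm48529 on the other strand, which had 22.1 to 33.3 CPM and a log2 fold change of 0.35 (edgeR, adjusted p = 0.39). If strand was not used in the counting, reads on the shared bases could be ambiguous between the 2 genes, and ambiguous reads were left out. The value of Tagln is therefore uncertain.

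Cnn1, calponin, an inhibitor of the myosin ATPase (chr9:22099216-22109630, plus strand), had 23.3, 22.3 and 25.8 CPM in the wild type libraries and 47.1, 26.1 and 27.6 CPM in Mov10-/- libraries 2, 3 and 4. Mov10-/- library 2 alone was far above the rest, while the lowest mutant library was 0.332 CPM above the highest wild type library. The log2 fold change was 0.50 ± 0.25 (SE), the highest of the members (edgeR, adjusted p = 0.353), and it was 0.18 without Mov10-/- library 2.

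Smtn, smoothelin, which is found in contractile smooth muscle (chr11:3517523-3540612, minus strand), had 49.8, 40.1 and 51.2 CPM in wild type libraries 1, 2 and 3. Its level in Mov10-/- libraries 2, 3 and 4 was 73.4, 60.4 and 57.9 CPM, all above the wild type. Smtn had a log2 fold change of 0.44 ± 0.15 (SE; edgeR, adjusted p = 0.203), the lowest adjusted p of the 10. The genes that overlap 753 of its exon bases on the other strand had at most 0.707 CPM.

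Lmod1, leiomodin, which starts new actin filaments (chr1:135324807-135368065, plus strand), had 32.7, 25.1 and 33.5 CPM in the wild type libraries and 43.7, 43.4 and 38.3 CPM in the Mov10-/- libraries. The gap between the genotypes was 4.75 CPM, about the size of the SD among the wild type libraries, 4.67 CPM. Lmod1 had a log2 fold change of 0.45 ± 0.17 (SE; edgeR, adjusted p = 0.226).

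Des encodes desmin, the intermediate filament of muscle (chr1:75360329-75368579, plus strand). The wild type libraries had 25.6, 26.3 and 27.2 CPM, close together, and Mov10-/- libraries 2, 3 and 4 had 53.0, 31.5 and 25.4 CPM. Library 4 was thus the lowest of the 6 and library 2 had about double the wild type level, with a log2 ratio of 1.01 to the wild type mean. Its log2 fold change was 0.48 ± 0.27 (SE; edgeR, adjusted p = 0.405), and 0.10 without Mov10-/- library 2.

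Counted together, 4 of the 10 genes (Acta2, Mylk, Smtn and Lmod1) had an unadjusted p under 0.05 with a higher mutant level, against 5.58% of tested genes. None had an unadjusted p under 0.05 with a lower mutant level, against 11.9% of tested genes. In 8 of 10 genes every Mov10-/- library was above every wild type library, which held for 11.9% of tested genes. That count includes Myh11 and Myl9, whose gaps were less than 1 read, and it was 5 of 10 when libraries were scaled to total reads only. No share of all tested genes is given for that scaling. DESeq2, which called 5.13% of all tested genes, called 0 of the 10. So did edgeR's exact and likelihood ratio tests, which called 1101 and 1187 of the 20240 tested genes, and limma voom, which called only 2. At an unadjusted p under 0.05 these 4 tools found 4, 5, 5 and 3 members, all higher. Shares of all tested genes at that threshold are given only for edgeR's quasi-likelihood test. The count of 4 was 1 without Mov10-/- library 2, 1 without wild type library 2 and 7 without Mov10-/- library 4.

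The libraries themselves were not alike. Relative to the wild type mean, the median log2 ratio of the 10 genes was 0.47 in Mov10-/- library 2, 0.34 in library 3 and 0.13 in library 4. Wild type libraries 1 and 3 were at 0.06 and 0.04, and wild type library 2 at -0.08. Mov10-/- library 2 held the highest value of 7 genes and wild type library 2 the lowest value of 6. The mutant library nearest to the wild type was library 4.

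**Figure D3:**
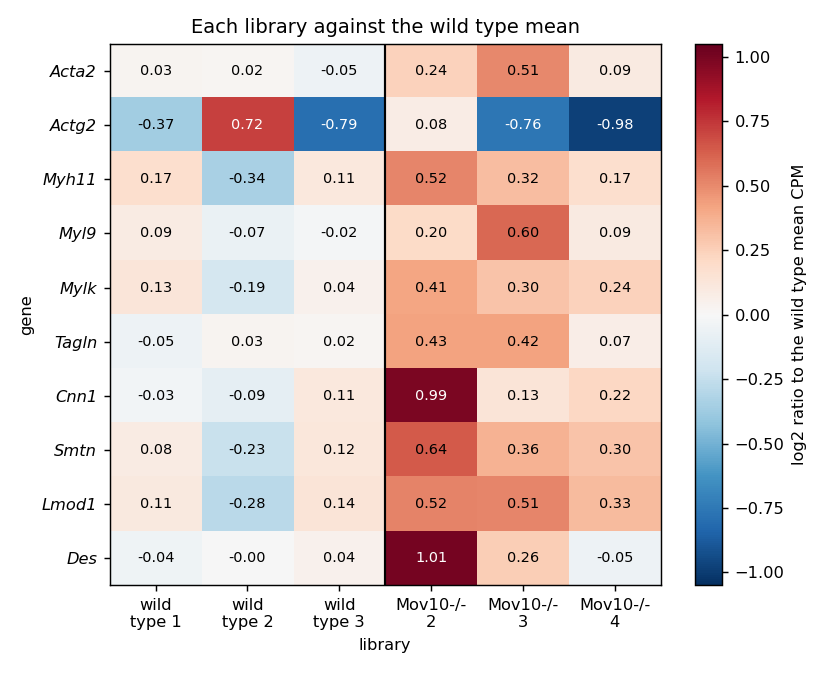
Log2 ratio of each gene's CPM in each of the 6 libraries (columns) to the wild type mean of that gene (rows are genes; red is higher, blue lower; the line separates genotypes). Mov10-/- library 2 is red throughout except for Actg2 at 0.08, with Cnn1 at 0.99 and Des at 1.01, and the Actg2 row runs from 0.72 in wild type library 2 to -0.98 in Mov10-/- library 4.

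Other cell types differed between the same libraries. The 13 tested spermatid markers of 15 had a median log2 fold change of -2.48, with an unadjusted p under 0.05 and a lower level in all 13, against 11.9% of tested genes. Their summed level was 276 to 1150 CPM in wild type and 70.5 to 238 CPM in Mov10-/- libraries. Wild type library 2, where most members were lowest, had the highest spermatid sum, and Mov10-/- library 2, where most were highest, had the lowest. Sertoli cell markers had a median log2 fold change of 0.31, near that of the members, and summed to 772 to 889 CPM in wild type and 942 to 1147 CPM in Mov10-/- libraries (11 of 12 tested, Rhox5 being at or near 0). Leydig cell markers (7 of 8 tested) had a median of 0.17 and endothelial markers (10 of 10) a median of 0.22. The part of cell composition in the members' values was not tested.

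When the libraries were scaled so that the Sertoli markers were equal, the median log2 fold change of the members was 0.0048, against -0.30 over all tested genes. With TMM scaling the Sertoli median (0.31) was already close to that of the members (0.33). A median near 0 therefore follows from this scaling and is not a separate result. Acta2 (-0.055), Myl9 (-0.030), Mylk (-0.0093) and Tagln (-0.029) then had log2 fold changes just under 0, and Smtn (0.12), Lmod1 (0.13), Cnn1 (0.17) and Des (0.13) just over it. Under this scaling 0 of 10 genes had an unadjusted p under 0.05, and 1 of 10 was above every wild type library in every mutant library. Shares of all tested genes are given only with TMM scaling, so these counts cannot be set against them. The higher values are those with TMM scaling, which rests on the bulk of the tested genes, and relative to Sertoli markers the median was near 0.

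**Figure D4:**
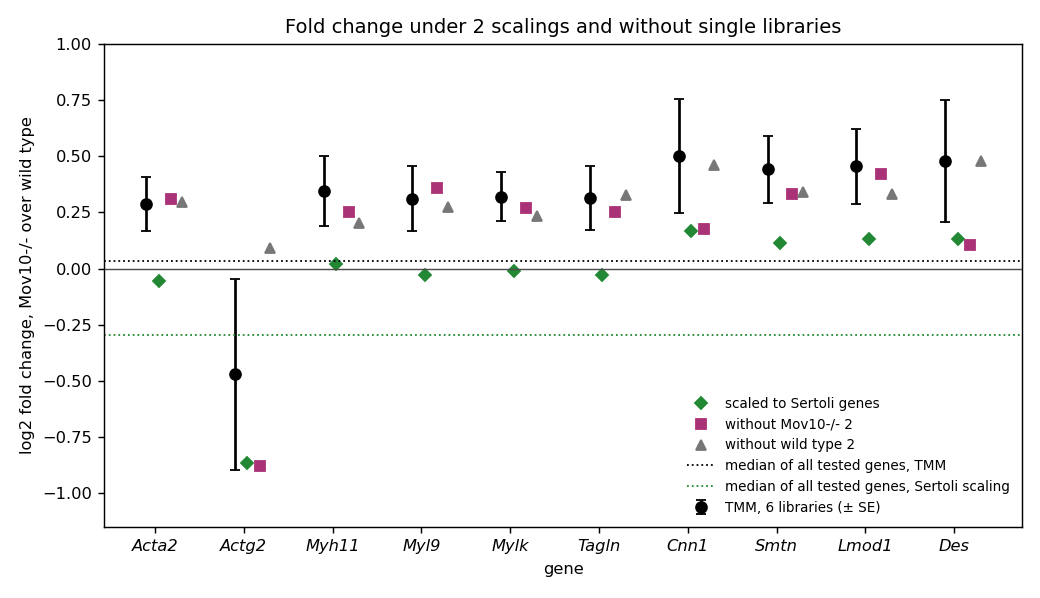
Log2 fold change of each gene in Mov10-/- over wild type testes: black points with SE bars for all 6 libraries with TMM scaling, green diamonds for scaling to Sertoli markers, purple squares without Mov10-/- library 2 and grey triangles without wild type library 2; dotted lines are the medians over all tested genes (0.03 and -0.30). Under Sertoli scaling the members except Actg2 lie near 0, and the Cnn1 and Des values drop to 0.18 and 0.10 without Mov10-/- library 2.

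Tissue beside the testis can also carry smooth muscle. Of 9 epididymis markers, 2 passed the filter, Lcn8 and Lcn9 had no reads in any library, and Lcn5 and Adam7 were at 0 in some. The summed level of the 9 was 19.0 to 42.1 CPM in wild type libraries, 96.9 CPM in Mov10-/- library 2, and 9.87 and 2.72 CPM in Mov10-/- libraries 3 and 4. The 2 tested markers did not run together. Crisp1 had 0.118, 12.7 and 24.6 CPM in wild type libraries 1, 2 and 3. Its level in Mov10-/- libraries 2, 3 and 4 was 70.1, 0.411 and 0.494 CPM. Rnase10 had 17.4, 22.7 and 7.30 CPM and then 0.124, 8.02 and 0.123 CPM, in the same order. Most of the sum of wild type library 1 was thus Rnase10. Skeletal muscle markers (13 of 16 tested, with Myh2 at 0 in 1 library) summed to 122 to 132 CPM in wild type and 131 to 183 CPM in Mov10-/- libraries. Actn3 alone held 46.2 to 56.8 CPM and 61.8 to 75.2 CPM of these sums. The 7 markers of mesothelium summed to 87.2 to 129 CPM and 87.8 to 148 CPM, of which Muc16 held 15.7 to 71.9 CPM and 6.05 to 13.2 CPM. The median log2 fold change was 0.46 for skeletal muscle and 0.96 for mesothelium markers, against 0.33 for the members. In all 3 lists Mov10-/- library 2 had the highest sum, as it had the highest value of 7 members, Cnn1 and Des among them. Acta1 had 25.9 CPM there and 0.353 to 3.56 CPM elsewhere, and Krt19 31.3 CPM and 0.707 to 4.11 CPM elsewhere. Other markers did not stand apart there: Bnc1 had 44.3 CPM and 25.7 to 42.9 CPM elsewhere, and Muc16 6.45 CPM and 6.05 to 71.9 CPM elsewhere. The same library also had the highest sum of the members and of the Leydig and endothelial lists. Its Leydig sum was 783 CPM, against 718 CPM in wild type library 1. Its endothelial sum was 241 CPM, against 234 CPM in Mov10-/- library 4. Of the lists read below, Mov10-/- library 2 was highest for the mural, contractile cytoskeleton, contraction signalling, hedgehog and matrix lists. It was not for the Sertoli, spermatid and SRF lists. The part of adjoining tissue in the values of Cnn1 and Des was not tested. Without Mov10-/- library 2, the log2 fold changes of Mylk, Smtn and Lmod1 were 0.27, 0.33 and 0.42.

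Vascular smooth muscle and pericytes share most of the 10 genes. Of 12 mural markers, all tested, 2 had an unadjusted p under 0.05 and a higher level in Mov10-/- testes (Notch3 and Abcc9), against 5.58% of tested genes. None had a lower one, against 11.9% of tested genes, and the median log2 fold change of the 12 was 0.35. The 3 of highest wild type level per kilobase were Ndufa4l2, with 27.7 ± 6.42 CPM in wild type and 20.5 ± 5.65 CPM in Mov10-/- testes, the endothelial and pericyte adhesion molecule Mcam (71.2 ± 13.4 and 87.8 ± 4.95 CPM) and the amine oxidase Aoc3 (61.8 ± 9.24 and 71.2 ± 12.3 CPM; SD, n = 3). The ATP-sensitive potassium channel subunit Abcc9 had the highest log2 fold change (0.60; edgeR, adjusted p = 0.23) and Ndufa4l2 the lowest (-0.44; adjusted p = 0.445). The count of 2 was 0 without Mov10-/- library 2, without Mov10-/- library 4 or without wild type library 2, and 1 without Mov10-/- library 3. Myoid and vascular sources of the 10 genes cannot be told apart in these libraries.

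The rest of the contractile machinery was read from a separate list. Of 24 genes of the contractile cytoskeleton, all tested, 0 passed the criteria. At an unadjusted p under 0.05, 7 had a higher level, against 5.58% of tested genes, and 0 a lower one, against 11.9%. In 13 of the 24 every mutant library was above every wild type library, against 11.9% of tested genes. The median log2 fold change of the 24 was 0.26. The 3 of highest wild type level per kilobase were the LIM protein Csrp1 (70.0 ± 3.99 CPM in wild type, 82.3 ± 6.68 CPM in Mov10-/-), the integrin subunit Itgb1 (129 ± 18.9 and 143 ± 16.8 CPM) and filamin A, Flna (252 ± 24.5 and 308 ± 17.2 CPM). Synpo2, which bundles actin at the Z-disc, had the highest log2 fold change (0.94; edgeR, adjusted p = 0.349). Its level was 9.54, 7.94 and 7.95 CPM in wild type and 29.5, 9.66 and 9.38 CPM in Mov10-/- libraries 2, 3 and 4, a library pattern like that of Cnn1 and Des. The integrin subunit Itga1 had the lowest log2 fold change (-0.43; edgeR, adjusted p = 0.327).

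A further list held the genes that govern contraction. Of 21 receptors, kinases, phosphatases and channels, all tested, 1 had an unadjusted p under 0.05 with a higher level and 2 with a lower one. Both counts were near the shares over all tested genes, 5.58% higher and 11.9% lower. The higher one was Ppp1r12a, the targeting subunit of myosin phosphatase, at 166 ± 14.5 CPM in wild type and 198 ± 6.99 CPM in Mov10-/-. The first of the 2 lower ones was Agtr1a, the angiotensin receptor, with 30.6 ± 7.997 and 17.8 ± 3.58 CPM (edgeR, log2 fold change -0.79, adjusted p = 0.197). The other was Pln, phospholamban, the inhibitor of the calcium pump, with 5.77, 20.95 and 3.87 CPM in wild type libraries 1, 2 and 3 and 0.620, 2.26 and 1.11 CPM in Mov10-/- libraries 2, 3 and 4. Its log2 fold change was -2.99 ± 0.77 (SE; edgeR, adjusted p = 0.15), every mutant library was below every wild type library, and DESeq2 called it, along with edgeR's exact and likelihood ratio tests. Wild type library 2 held by far the most Pln, as it did the spermatid markers. Atp2a2, the calcium pump itself, had 250.1 ± 5.33 CPM in wild type and 267 ± 20.9 CPM in Mov10-/- testes, and the endothelin receptor Ednrb the highest log2 fold change (0.70; edgeR, adjusted p = 0.443). The median of the 21 was 0.22. The count of 1 was 0 without Mov10-/- library 2, without Mov10-/- library 4 or without wild type library 2, and 2 without wild type library 3, and the count of 2 was 1 without Mov10-/- library 2 or wild type library 1.

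The transcriptional regulators of smooth muscle genes formed a short list. Of 8 genes of SRF and its cofactors, all tested, 1 had an unadjusted p under 0.05 with a higher level (Mrtfb, a cofactor of SRF, log2 fold change 0.26), against 5.58% of tested genes. None had a lower one, against 11.9% of tested genes, and the median log2 fold change of the 8 was 0.11. Srf had 69.4 ± 11.8 CPM in wild type and 75.5 ± 12.7 CPM in Mov10-/- testes, the LIM protein Fhl2 had 48.7 ± 5.29 and 57.8 ± 4.74 CPM, and Klf4, a repressor of smooth muscle genes, 70.3 ± 29.2 and 49.2 ± 9.01 CPM (SD, n = 3). Klf4 had the lowest log2 fold change of the list (-0.52; edgeR, adjusted p = 0.385) and Elk1 the highest (0.28; adjusted p = 0.538). Myocd, which encodes myocardin and is named here after its values were seen, had 3.83 to 7.54 CPM in wild type and 3.33 to 6.95 CPM in Mov10-/- libraries. The count of 1 was 0 without Mov10-/- library 2, wild type library 2 or wild type library 3, and 1 gene had a lower level without wild type library 1 or 3.

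Signals to the myoid cell, desert hedgehog and PDGF from Sertoli cells and androgen from Leydig cells, were read from 12 genes, all tested. Of these 2 had an unadjusted p under 0.05 with a higher level, against 5.58% of tested genes, and 0 with a lower one, against 11.9%. The median log2 fold change of the 12 was 0.35. The ligand Dhh had 72.3 ± 14.4 CPM in wild type and 89.8 ± 8.47 CPM in Mov10-/- testes, and the receptor Pdgfra 125 ± 40.0 and 168 ± 37.1 CPM (SD, n = 3). Smo, the transducer of the hedgehog signal, had the highest log2 fold change of the list (0.58; edgeR, adjusted p = 0.267). The count of 2 was 0 without any 1 of the 3 Mov10-/- libraries or without wild type library 2, and 3 without wild type library 1, and in that last fit 1 gene had a lower level.

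The last related list was the matrix of the tubule wall, which myoid cells help to lay down. Of 18 genes, all tested, 0 passed the criteria, and 11 had an unadjusted p under 0.05 with a higher level, against 5.58% of tested genes. At that threshold 0 had a lower level, against 11.9%. In 13 of the 18 every mutant library was above every wild type library, against 11.9% of tested genes. The median log2 fold change of the 18 was 0.38. Basement membrane collagen Col4a1 had 245 ± 25.4 CPM in wild type and 291 ± 20.95 CPM in Mov10-/- testes, Col6a1 had 136 ± 24.9 and 181 ± 4.66 CPM, and Sparc, a collagen-binding glycoprotein, had 179 ± 11.3 and 217 ± 39.0 CPM (SD, n = 3). Lumican, Lum, had the highest log2 fold change (1.00; edgeR, adjusted p = 0.282) and Postn the lowest (-0.29; adjusted p = 0.437). The count of 11 was 6 without Mov10-/- library 2 and 7 without wild type library 2, and it was 1 when libraries were scaled to the Sertoli markers, with 1 lower. Over the 6 related lists, 95 genes in all, DESeq2 and edgeR's exact and likelihood ratio tests called Pln only, and limma voom called 0. Over all 20240 tested genes the counts, in the same order, were 1039, 1101, 1187 and 2.

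**Figure D5:**
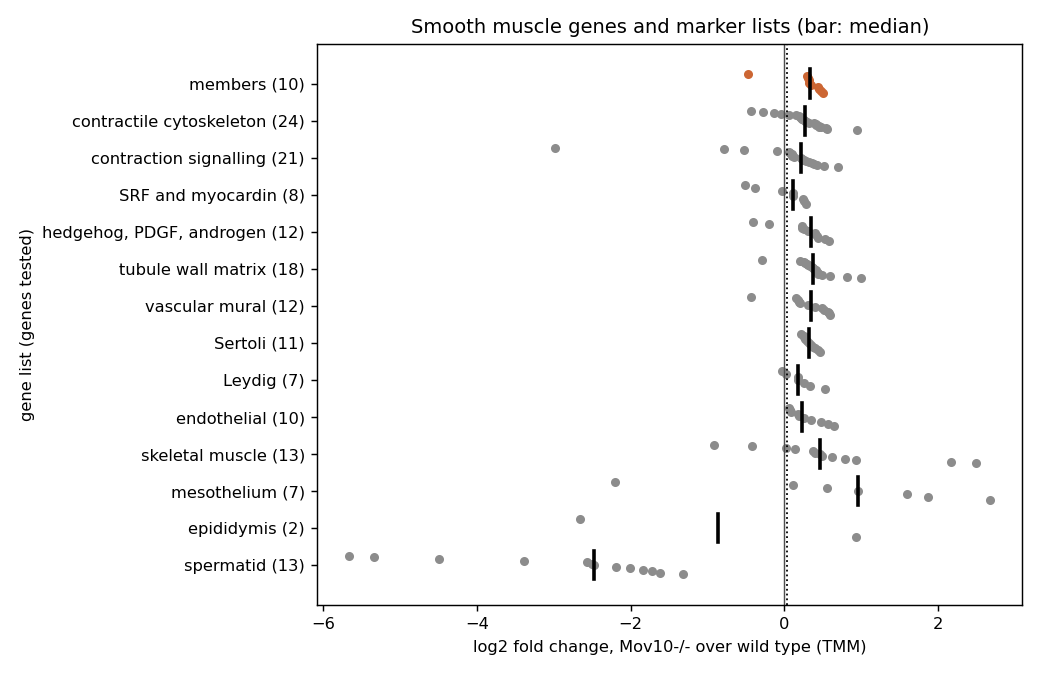
Log2 fold change (Mov10-/- over wild type, TMM scaling) of each tested gene in the smooth muscle set (orange) and in the related and marker lists (grey), 1 point per gene; the black bar is the list's median and the dotted line the median over all tested genes, 0.03. Members, mural, hedgehog, matrix and Sertoli lists have medians between 0.31 and 0.38, and the skeletal muscle and mesothelium medians are higher, at 0.46 and 0.96. The spermatid list lies wholly below 0 with a median of -2.48.

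Among the 12327 other protein-coding genes with a mean of at least 10 CPM, the 5 whose log2 level was most like the members' mean over the 6 libraries were Rer1 and Kcnk3 (Pearson's r of 0.98 each) and Plpp2, Ndel1 and Olfm1 (also 0.98). They were picked as the highest of all these genes, so their r is a description. Rer1 had 56.1 to 56.4 CPM in wild type and 56.4 to 59.6 CPM in Mov10-/- libraries, so that its likeness lies in the order of the libraries and not in the size of the change. The potassium channel gene Kcnk3 had 17.4 to 20.4 CPM in wild type and 23.7 to 39.8 CPM in Mov10-/- libraries, with library 2 the highest, as for 7 of the members.

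In CLIP-seq of MOV10 from wild type P21 testes, where ultraviolet light links the protein to RNA it touches, the members were hardly seen. The 4 libraries held 3404 to 4934 reads on genes, and differences among the counts of replicates 1, 2 and 3 were smaller than the sampling noise, so they were averaged and counted as 1, with replicate 5 as the other. Each of the 4 libraries had 1 read on the 10 genes: replicates 1, 2 and 3 on Mylk, and replicate 5 on Myl9. The other 8 genes had 0 reads in every library, which allows up to 3 reads, or 608 to 881 CPM in a library. At the share that the 10 genes had in wild type RNA-seq (761 CPM before TMM scaling), 2.59 to 3.76 reads would have been counted. The share in CLIP-seq was 0.317 of that in RNA-seq (95% Wilson interval 0.085 to 1.12, for 2 reads of 8526 after averaging, counting error only). A preference of MOV10 for or against any single one of the 10 genes was not detectable at this depth.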

How the data were processed

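The files that the authors deposited, 1 for each RNA-seq and CLIP-seq library, hold unnormalized counts for every Ensembl gene. According to the methods, RNA was sequenced from TruSeq Stranded mRNA libraries, and reads were trimmed, aligned to mm10 with STAR and counted with htseq-count on Ensembl release 99. Tool versions and the strand setting of the counting are not given in the sources used here, and for CLIP-seq only the count files, of the same layout, were used. Reads outside genes, ambiguous, not unique or not aligned (52.8% to 71.7% of an RNA-seq file and over 99.9% of a CLIP-seq file) were left out.

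Gene names, exon lengths and positions came from GENCODE mouse release 21 (Ensembl 96, GRCm38, the same build as mm10), to which 55240 of 55421 genes matched, and promoters from RefSeq. Genotypes were compared with edgeR 4.0.16 in R 4.3.3: TMM scaling, quasi-likelihood test with all 6 RNA-seq libraries and no covariate, and Benjamini-Hochberg adjustment over the 20240 genes above 1 CPM in at least 3 of 6 libraries. A gene was called at a fold over 2 and an adjusted p under 0.05. Unadjusted p-values were counted at 0.05. Likeness used Pearson's r of log2(CPM + 1). The Sertoli scaling set the mean log2(CPM + 1) of the Sertoli list equal in the 6 libraries.

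Alternatives were other scalings, filters of none and 0.2 CPM, DESeq2 1.42.0, edgeR's exact and likelihood ratio tests, limma 3.58.1 (voom), the replicate number as a block, and leaving out single libraries. The test was checked on simulated counts, with a change of 4-fold put into 200 of 20240 genes. It recovered 133 of the 200 and made 12 false calls. Changes as small as those of the members were not simulated. Intervals on CLIP-seq shares are 95% Wilson intervals, and 0 reads was taken to allow up to 3.

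The 10 genes and the 13 lists beside them were chosen with earlier results of these data known. Named genes were the 10 members, Mov10, and, from the 6 related lists, the 3 genes of highest wild type level per kilobase, the genes of highest and lowest log2 fold change, and any called. The values of 1 gene that this rule names are not reported here. Notch3, Mrtfb, Myocd, Crisp1, Rnase10, Acta1, Actn3, Krt19, Bnc1, Muc16 and the antisense genes were named after their values were seen. Figures and tables were made with Python 3.11.15.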

Additional observations from a re-analysis of the deposited data

How the results depend on the processing

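The count of 0 called among the 10 genes held in all 16 alternatives, with adjusted p-values from 0.0847 (Mylk) upwards. Scaling to the Sertoli markers, which moves the median over all tested genes to -0.30, changed most. The Sertoli list's own median with TMM scaling was 0.31, so a drop of about that size is built into this scaling. The members' median log2 fold change was 0.0048 in place of 0.33, and 0 in place of 4 members had an unadjusted p under 0.05. Only 1 in place of 8 had every mutant library above every wild type library (5 with scaling to total reads). Shares of all tested genes at these criteria are given only with TMM scaling. With the Sertoli scaling Acta2 (-0.055), Myl9 (-0.030), Mylk (-0.0093) and Tagln (-0.029) turned below 0. In the 6 related lists, genes with an unadjusted p under 0.05 then numbered 1 higher in place of 24, and 11 lower in place of 2. A filter at 0.2 CPM gave 7 members with an unadjusted p under 0.05. With the replicate number as a block, the members' median was 0.49, 0 members had an unadjusted p under 0.05, and the related lists had 6 genes higher and 1 lower. Only numbers 2 and 3 are shared between the genotypes, same-numbered libraries deviated in opposite directions (r = -0.59 and -0.47), and the numbers were not read as pairs. With each library left out in turn, the members' median was 0.26 to 0.42, 1 to 7 members had an unadjusted p under 0.05, and the related lists had 13 to 25 genes higher and 1 to 4 lower. The log2 fold change of Actg2 was then -0.88 (without Mov10-/- library 2) to 0.091 (without wild type library 2). The CLIP-seq share of the members, relative to wild type RNA-seq, was 0.0371 in place of 0.317 when taken over all aligned reads, few of which lie on genes in CLIP-seq. The cause of the other changes was not tested. With 3 animals per genotype, the SE of the members' log2 fold changes was 0.11 to 0.43, and the CLIP-seq libraries were too shallow to compare single genes.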
